A study of Mus musculus with 18 samples.

Results

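The 37 interferon-stimulated genes described here are *Ifit1*, *Ifit2*, *Ifit3*, *Oas1a*, *Oas2*, *Oas3*, *Oasl1*, *Oasl2*, *Ifih1*, *Ddx58*, *Dhx58*, *Eif2ak2*, *Zbp1*, *Isg15*, *Usp18*, *Herc6*, *Mx1*, *Mx2*, *Rsad2*, *Cmpk2*, *Isg20*, *Ifitm3*, *Samd9l*, *Gbp2*, *Gbp3*, *Stat2*, *Parp9*, *Dtx3l*, *Parp14*, *Ifi35*, *Trim30a*, *Trim30d*, *Ifi27l2a*, *Ifi44*, *Xaf1*, *Rtp4* and *Lgals3bp*. They were taken by symbol from the 19919 genes listed in any of 3 expression tables of mouse bone marrow progenitors, without the interferon regulatory factor (IRF) family and *Bst2*. All 37 were listed in every table, and all 37 passed the filter on low values in every population. In KO multipotent progenitors (MPPs) every KO library was below every WT library for 30 of the 37 genes, as it was for 23.3% of all tested genes. There 5 members were called lower (1.32% of all genes). This count became 0 when any WT library was left out, and 11 without the KO library numbered 3 (4.43% of all genes). In KO common lymphoid progenitors (CLPs) *Ifi27l2a*, *Mx1*, *Stat2*, *Trim30a* and *Trim30d* were called lower (2.84% of all genes), and 0 members were called higher (0.673%). In common dendritic cell progenitors without CD115 (CD115- CDPs) no member was called, where 0.0654% of all genes were called lower and 0.0409% higher. Taking the replicate number into account there gave 3 members called lower (1.46% of all genes) and 0 higher (0.376%). Leaving out both libraries numbered 3 instead gave calls in the other direction, 4 higher (0.554%) and 0 lower (1.29%).

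Type I interferons bind a receptor made of IFNAR1 and IFNAR2, whose kinases JAK1 and TYK2 phosphorylate STAT proteins. STAT2 and IRF9 act in a complex that binds interferon-stimulated response elements (ISREs) in the promoters of interferon-stimulated genes, and other STAT complexes bind gamma-activated sites (GAS). The products sense viral RNA, degrade or sequester it, tag proteins with the ubiquitin-like ISG15 or feed back on the receptor, and stem and progenitor cells of the bone marrow are known to keep part of this programme active without infection.

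RNA-seq had been done to compare *Trim33*-deficient with WT progenitors, and TRIM33 is a nuclear ubiquitin ligase that modulates transcription. WT mice were *Trim33* fl/fl and KO mice *Trim33* fl/fl Cre-ERT2, both on C57BL/6 and aged 6 to 8 weeks, and both had received 2 mg of tamoxifen on 5 days and were left for a further 7 days. Cre-ERT2 acts in all tissues, so that the niche of the sorted cells carried the deletion too, and the WT mice carried no Cre. All sorted cells were FLT3+ and lineage-negative. MPPs were also CD34+, CD117+ and Sca-1+, CD115- CDPs were CD117int and lacked CD11c, CD127 and CD115, and CLPs were CD127+, CD117+ and Sca-1+ and lacked CD11c. Each population had 3 WT and 3 KO libraries, 18 in all, described as biological repeats. Nothing states whether mice were pooled or litters shared, so p-values measure the spread between these libraries. Values are FPKM (mapped fragments of a gene divided by its transcript length and by the total of its library) per gene and library, and the steps between low values placed the depth at 19.1 to 21.2 M reads per library. A single read then adds about 0.0252 FPKM to a gene whose transcript has 2000 bases.

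The level of the deleted gene did not separate the genotypes. *Trim33* itself had 10.4, 10.1 and 8.78 FPKM in WT 1, WT 2 and WT 3 MPPs and 9.71, 11.7 and 4.8 FPKM in KO 1, KO 2 and KO 3. In CD115- CDPs it had 14.3, 15.2 and 8.27 FPKM in WT and 9.64, 8.28 and 4.03 FPKM in KO libraries, and in CLPs 12.4, 7.01 and 8.86 FPKM in WT against 7.52, 5.6 and 7.66 FPKM in KO libraries. The genotypes overlapped in each population, with limma adjusted p = 0.63 in MPPs, 0.528 in CD115- CDPs (0.0258 with the replicate number as a block) and 0.255 in CLPs. The deleted exons 2 to 4 make up 397 of the 8875 bases of the transcript, 4.47%, so that the level of the gene is a weak check of the deletion, and a KO library is a library with that label throughout.

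Replicates differed among themselves more in some groups than in others. The median squared difference between WT 1 and WT 2 MPPs was 2.16 times that of counting noise, the closest pair of any group, and all other pairs within a group lay between 6.30 and 80.2 times. KO 3 differed from KO 1 and KO 2 by 38.0 and 48.9 times counting noise in MPPs, and in CD115- CDPs WT 3 differed from WT 1 and WT 2 by 42.9 and 80.2 times and KO 3 from KO 1 and KO 2 by 48.4 and 58.4 times. WT 3 CD115- CDPs held more of several mature cell markers: the 7 monocyte and macrophage markers summed to 499 FPKM there and to 138 and 95 FPKM in WT 1 and WT 2, and the 8 neutrophil markers to 1711 FPKM there and to 90.6 and 229 FPKM. Counts of called members are therefore also given without these libraries. Of the sort markers, *Kit* (at least 29.9 FPKM), *Flt3* (at least 225 FPKM) and *Cd34* (at least 347 FPKM) were present in all MPP libraries, and *Il7r* was between 32.6 and 63.0 FPKM in CLPs. *Csf1r*, which encodes the CD115 that the CDP gate excludes, was between 39.1 and 137 FPKM in WT and between 9.24 and 37.2 FPKM in KO CD115- CDPs.

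A stretch of promoter was available for 27 of the 37 genes in RefSeq (GRCm38.p6, 250 bases before to 50 after a start), 32 windows in all. *Dhx58*, *Ifi27l2a*, *Mx1*, *Mx2*, *Oas2*, *Parp14*, *Parp9*, *Rtp4*, *Usp18* and *Zbp1* had none. The ISRE letters GAAANNGAAA, searched on both strands and with overlapping matches counted, were in 16 of the 32 windows (50.0%) and in 15 of the 27 genes (55.6%), against 3.44% of all 32851 windows and 3.99% of all 27025 genes. The GAS letters TTCNNNGAA, which read the same on both strands, were in 6 of the 27 genes (22.2%) and 9.55% of all genes. The stretches below are those of genes that the results turn on, 100 bases each, 5′ to 3′ on the strand of the gene, with the ISRE letters in capitals. *Trim30a* and *Trim30d* are shown because both fell together, *Stat2* because it fell in CLPs, *Gbp2* and *Gbp3* because they were higher in CLPs by the adjusted p, and *Isg15*, *Ifit1* and *Rsad2* because they split the KO libraries.
Trim30a, chr7:104465194-104465293 on the minus strand: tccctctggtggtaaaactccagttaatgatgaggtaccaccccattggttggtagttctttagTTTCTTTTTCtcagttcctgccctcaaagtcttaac
Trim30d, chr7:104507850-104507949 on the minus strand: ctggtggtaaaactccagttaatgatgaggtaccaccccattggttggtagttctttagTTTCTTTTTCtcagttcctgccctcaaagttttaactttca
Stat2, chr10:128270248-128270347 on the plus strand: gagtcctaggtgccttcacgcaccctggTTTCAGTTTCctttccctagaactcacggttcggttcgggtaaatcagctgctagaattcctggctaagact
Gbp2, chr3:142620563-142620662 on the plus strand: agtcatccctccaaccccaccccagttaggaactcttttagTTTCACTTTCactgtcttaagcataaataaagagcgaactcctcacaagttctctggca
Gbp3, chr3:142559944-142560043 on the plus strand: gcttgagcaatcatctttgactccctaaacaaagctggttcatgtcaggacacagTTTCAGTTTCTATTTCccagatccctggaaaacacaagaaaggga
Isg15, chr4:156200839-156200938 on the minus strand: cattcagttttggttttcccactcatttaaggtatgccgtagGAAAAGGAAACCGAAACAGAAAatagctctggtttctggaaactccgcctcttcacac
Ifit1, chr19:34640759-34640858 on the plus strand: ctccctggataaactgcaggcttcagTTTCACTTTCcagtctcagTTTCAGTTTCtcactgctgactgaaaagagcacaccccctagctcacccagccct
Rsad2, chr12:26456493-26456592 on the minus strand: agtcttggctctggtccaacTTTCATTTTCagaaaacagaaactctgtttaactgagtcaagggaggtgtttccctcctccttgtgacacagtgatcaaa
Genes that fell, genes that were higher and genes that split the KO libraries all included windows with the letters, and a match is a description of the window and not a bound site. The letters were not in the windows of 12 members, among them *Cmpk2* and *Ifi35*, which fell in CLPs, and *Ifi44*, which fell in MPPs. In the stretches shown, *Trim30a* and *Trim30d* hold the letters once each, at positions -36 and -41 from the start (a further match of *Trim30a*, at position 2, lies past the stretch), and *Isg15* holds 3 overlapping matches.

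Several members are neighbours. *Trim30a* (chromosome 7, 104409025 to 104465193) and *Trim30d* (chromosome 7, 104470014 to 104507853) lie close together, as do *Rsad2* (chromosome 12, 26442743 to 26456452) and *Cmpk2* (chromosome 12, 26469117 to 26479837) in GRCm38.p6. The 3 IFIT genes lie on chromosome 19, the 5 OAS genes on chromosome 5, and *Mx1*, *Mx2*, *Parp9*, *Dtx3l*, *Parp14* and *Rtp4* are 6 members on chromosome 16. Reads of 50 bases cannot always be told apart between *Trim30a* and *Trim30d*, *Mx1* and *Mx2*, or members of the IFIT, OAS and GBP families and their close copies, so the split between such copies is uncertain. Strand was not stated for the library kit.

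In WT cells the programme was most abundant in MPPs. Among the 37 genes, 28 had their highest WT mean in MPPs (40.9% of all 12421 genes tested over the 3 populations), 20 of them with every WT MPP library above every WT library of both other populations (18.3% of all genes). The median of the 37 WT means was 10.6 FPKM in MPPs, 7.32 FPKM in CLPs and 4.58 FPKM in CD115- CDPs, levels that come from 3 separately made tables and were not tested against each other. WT means ran from 1.98 FPKM (*Ifit3*) to 345 FPKM (*Ifitm3*, which blocks virus entry at membranes) in MPPs, from 0.770 FPKM (*Ifit1*) to 122 FPKM (*Ifitm3*) in CD115- CDPs and from 0.437 FPKM (*Ifit1*) to 83.8 FPKM (*Ifi27l2a*) in CLPs. CLPs had the highest WT mean for 8 genes (33.4% of all genes), *Usp18*, *Mx1*, *Mx2*, *Stat2*, *Ifi35*, *Trim30a*, *Trim30d* and *Ifi27l2a*, of which *Stat2*, *Ifi35* and *Trim30a* did so without overlap (10.8% of all genes), and *Gbp3* was highest in CD115- CDPs.

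Each genotype comparison was made within a population with limma on log2(FPKM + 1), and a gene was called where p, adjusted by Benjamini-Hochberg over all tested genes, did not exceed 0.05 and the log2 fold change reached 1 in size. In KO MPPs 5 of 37 members were called lower, *Oas2*, *Zbp1*, *Trim30a*, *Trim30d* and *Ifi44*, and 0 higher, where 1.32% of all tested genes were called lower and 0.162% higher. By the adjusted p alone 13 were lower (3.52% of all genes) and 0 higher (0.315%). Those 13 became 0 without WT 1, WT 2 or WT 3, 2 without KO 1 and 4 without KO 2. Without KO 3 there were 31 lower and 2 higher by the adjusted p. The share of all genes by this rule is not given for these fits, so nothing particular to the members is read from these counts. With the minimum fold change, leaving out KO 3 raised the share of all genes called lower from 1.32% to 4.43%. The share called higher rose from 0.162% to 2.97%. Every KO MPP library was below every WT library for 30 of 37 members (23.3% of all genes) and above for 0 (6.98%). Summed over the 37 genes, WT MPPs held 874, 856 and 950.4 FPKM and KO MPPs 574, 520 and 601 FPKM. The median log2 fold change of the members was -0.66, against -0.11 over all genes, and 35 of 37 were below 0 (63.0% of all genes). Scaling by median ratios moved the median of all genes from -0.11 to -0.01 and put that of the members at -0.55, with 33 below 0 and 27 below WT without overlap (19.6% of all genes). Fewer cells with an active interferon programme and less of its RNA in each cell cannot be told apart in these bulk libraries.

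The MPP counts depended on each of the 6 libraries. Without KO 3, 11 members were called lower (4.43% of all genes). The count was 0 without KO 1 (124 of all 12398 genes tested) and 1 without KO 2 (0.703%). Leaving out WT 1, WT 2 or WT 3 left 0 called in limma, where 0.357%, 0.381% and 0.349% of all genes were called lower. In these fits 34 or 35 members were below 0, and the share of all genes below 0 is not given. The median of the members was -0.67, -0.70 and -0.64, against -0.11, -0.11 and -0.10 over all genes. KO 1 and KO 2 were both below every WT library for 31 members (50.0% of all genes). KO 3 was above both of them for 23 of these 31, as it was for 86.6% of all genes with KO 1 and KO 2 below every WT library, and nothing particular to the members is read from it.

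In KO CLPs 5 of 37 members were called lower, *Ifi27l2a*, *Mx1*, *Stat2*, *Trim30a* and *Trim30d*, and 0 higher, where 2.84% of all genes were called lower and 0.673% higher. By the adjusted p alone 9 were lower (8.92% of all genes), with *Usp18*, *Mx2*, *Cmpk2* and *Ifi35* in addition, and 4 were higher (5.41%), *Gbp2*, *Gbp3*, *Ddx58* and *Rtp4*, all under a log2 fold change of 1. Those 4 became 1 without WT 3, KO 2 or KO 3, 2 without WT 2 or without a filter on low values, and 0 without both libraries numbered 3. For these fits the share of all genes by the adjusted p alone is not given, so the drop cannot be set against one in all genes. Every KO library was below every WT library for 11 members (18.6% of all genes) and above for 7 (15.3%). The members had a median log2 fold change of 0.06, against 0.01 over all genes, and 15 of 37 were below 0 (48.8% of all genes). Their summed level was 531, 471 and 499 FPKM in WT and 377, 411 and 386 FPKM in KO CLPs. *Ifi27l2a* alone made up 91.1, 71.3 and 89 FPKM of this in WT and 14.3, 17.1 and 16 FPKM in KO libraries. The 5 calls held in every fit that left out a CLP library and with the replicate number as a block, where 3.11% of all genes were called lower and 0.746% higher.

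In KO CD115- CDPs 0 members were called in either direction (0.0654% of all genes lower and 0.0409% higher), and 6 of 37 had an unadjusted p of at most 0.05 in limma (10.5% of all genes). With the replicate number as a block, *Trim30a*, *Trim30d* and *Ifi27l2a* were called lower and 0 higher, where 1.46% of all genes were lower and 0.376% higher. Groups did not overlap for *Herc6*, *Mx1*, *Stat2* and *Ifi27l2a*, which were below WT (10.6% of all genes), and for *Rtp4*, which was above (7.68%). Summed over the 37 genes, WT CD115- CDPs held 343, 266 and 664 FPKM and KO CD115- CDPs 365, 319.5 and 413 FPKM, with WT 3 far above the rest. *Ifitm3* alone had 246 FPKM in WT 3. Without *Ifitm3* and *Lgals3bp* the sums were 247, 187 and 363 FPKM in WT and 240, 209 and 211 FPKM in KO libraries. The median log2 fold change of the members was -0.14, against -0.07 over all genes. Of the 37 members 20 were below 0 (60.0% of all genes). Leaving out single libraries moved the median from -0.36 without WT 2, with 25 members below 0, to 0.16 without WT 3, with 12 below 0. Over all genes the median was -0.08 and -0.05 in these fits. Without both libraries numbered 3, limma called 4 members higher, *Ifit1*, *Rsad2*, *Rtp4* and *Isg15* (0.554% of all genes), and 0 lower (1.29%).

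**Figure D1:**
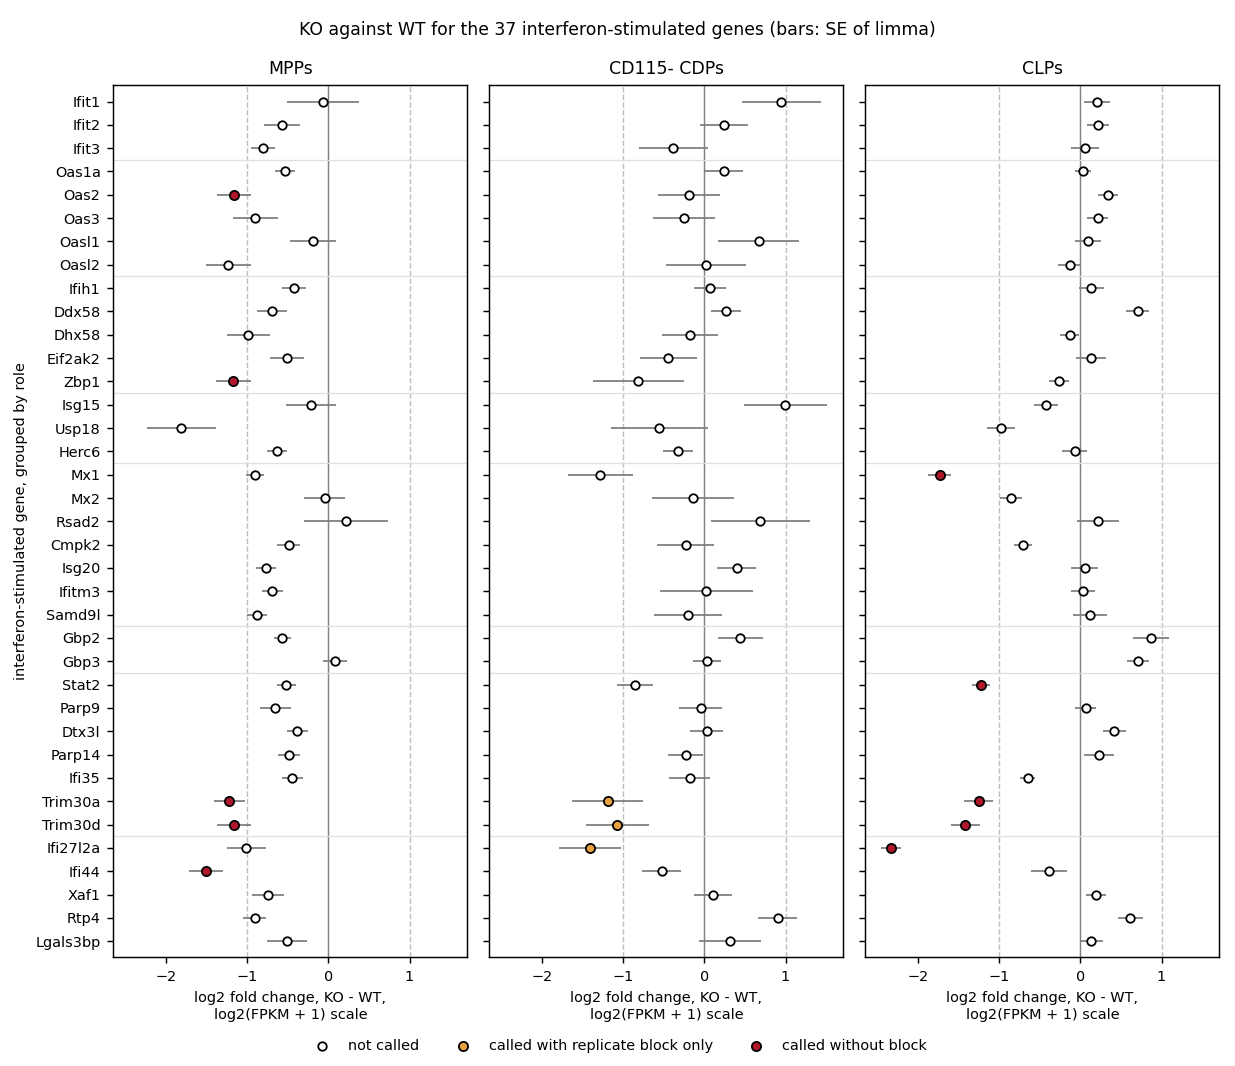
Log2 fold change (KO minus WT on the log2(FPKM + 1) scale, x axis) of each of the 37 genes (y axis, grouped by role) in MPPs, CD115- CDPs and CLPs, with bars for the standard error of limma. Red points were called without a block, and amber points in CD115- CDPs only with the replicate block. In MPPs 35 of 37 points lie below 0, while in CLPs they lie on both sides and *Ifi27l2a* is farthest to the left.

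**Figure D2:**
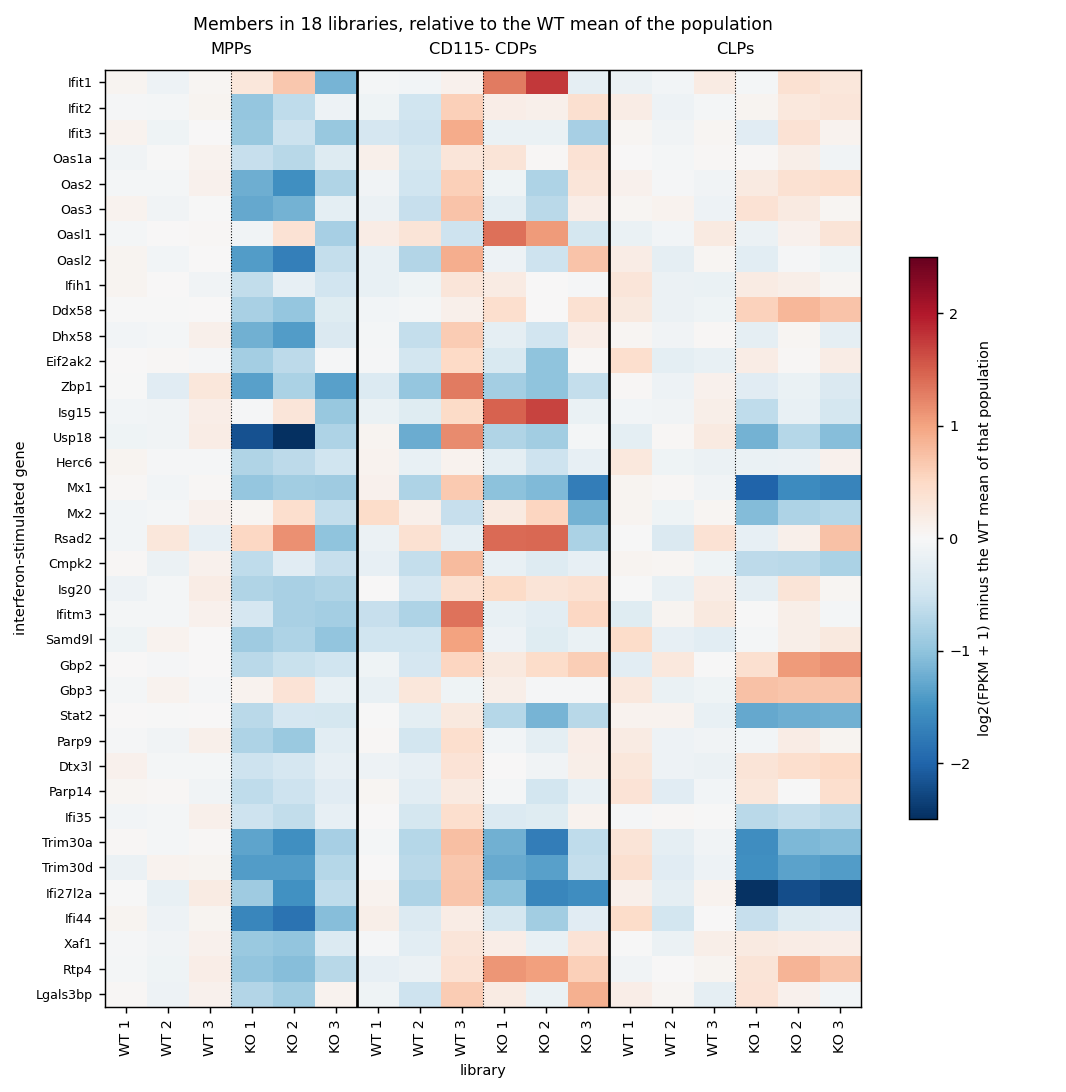
Colour shows log2(FPKM + 1) of each gene (y axis) in each of the 18 libraries (x axis) minus the WT mean of the same population, blue for lower and red for higher. KO 1 and KO 2 MPPs are blue for most genes and KO 3 is paler, WT 3 CD115- CDPs are redder than WT 1 and WT 2, and *Ifit1*, *Isg15* and *Rsad2* are red in KO 1 and KO 2 CD115- CDPs.

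Signalling and transcription members came first in CLPs, where 3 of 7 were called lower, against 2 of 7 in MPPs and 0 of 7 in CD115- CDPs, or 2 of 7 there with the replicate block. Of all genes 2.84%, 1.32% and 0.0654% were called lower in these populations, and 1.46% in CD115- CDPs with the block. Apart from *Stat2* in CLPs, all calls in this role group were *Trim30a* and *Trim30d*, neighbours whose reads cannot always be told apart. *Stat2* (Entrez 20847, chromosome 10, 128270498 to 128292853), the STAT particular to type I and type III interferon signals, had 27.8, 27.8 and 22.8 FPKM in WT 1, WT 2 and WT 3 CLPs and 10.1, 10.7 and 10.7 FPKM in KO 1, KO 2 and KO 3. The groups were far apart and KO replicates nearly equal, a change of -1.23 ± 0.112 (SE) on the log2 scale with adjusted p = 0.000206 in limma. In MPPs *Stat2* had 10.3, 10.1 and 10.3 FPKM in WT and 6.0, 7.35 and 7.23 FPKM in KO libraries, without overlap and with limma adjusted p = 0.0693. In CD115- CDPs the *Stat2* values were 12.3, 10.3 and 14.7 FPKM in WT and 7.14, 4.92 and 7.17 FPKM in KO libraries. These did not overlap either, and the log2 fold change of -0.86 had a limma adjusted p of 0.318, or 0.017 with the replicate block.

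*Trim30a* and *Trim30d*, paralogous TRIM proteins of which TRIM30a is known to restrain innate signalling, were the members called lower in both MPPs and CLPs. *Trim30a* (Entrez 20128) had 19.7, 18.5 and 19.6 FPKM in WT and 7.14, 6.0 and 10.5 FPKM in KO MPPs, a change of -1.22 ± 0.19 (SE) on the log2 scale with adjusted p = 0.0258 in limma. In CLPs *Trim30a* had 40.9, 27.8 and 30.8 FPKM in WT and 10.4, 14.6 and 14.9 FPKM in KO libraries, a change of -1.25 ± 0.178 (SE) on the log2 scale with adjusted p = 0.0024 in limma. Every KO library was below every WT library in both populations. In CD115- CDPs *Trim30a* had 15.3, 9.18 and 27.4 FPKM in WT and 6.26, 4.03 and 9.75 FPKM in KO libraries. Each KO library was below the WT library of the same number, but KO 3 reached above WT 2, and the limma adjusted p was 0.431, or 0.00803 with the replicate block.

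*Trim30d* (Entrez 209387) had 4.86, 5.83 and 5.74 FPKM in WT and 1.46, 1.47 and 2.93 FPKM in KO MPPs, a change of -1.17 ± 0.211 (SE) on the log2 scale with adjusted p = 0.0379 in limma. Its CLP values were 11.6, 6.8 and 7.65 FPKM in WT and 2.27, 2.75 and 2.61 FPKM in KO libraries, a change of -1.42 ± 0.183 (SE) on the log2 scale with adjusted p = 0.00143 in limma. *Trim30d* was less abundant than *Trim30a* in every library of both populations and fell beside it. In CD115- CDPs it had 4.22, 2.25 and 7.26 FPKM in WT and 1.16, 1.02 and 2.44 FPKM in KO libraries, with a limma adjusted p of 0.423, or 0.0236 with the block. *Ifi35*, a modulator of innate signalling, was lower in CLPs by the adjusted p alone at -0.65 (limma adjusted p = 0.00194). *Parp9*, *Dtx3l* and *Parp14*, whose products act on interferon-dependent transcription, were not called in any population, and *Dtx3l* was below every WT library in MPPs and above every WT library in CLPs.

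Small interferon-induced proteins and members with other roles included the largest change of all. *Ifi27l2a* (Entrez 76933, chromosome 12, 103433873 to 103443680) encodes a small membrane protein strongly induced by interferon. It had 91.1, 71.3 and 89 FPKM in WT and 14.3, 17.1 and 16 FPKM in KO CLPs, so that WT means were 5.31 times those of KO. On the log2 scale this was -2.33 ± 0.124 (SE) with adjusted p = 9.84e-06 in limma, and the groups were far apart. In MPPs the values were 33.4, 29.6 and 39.3 FPKM in WT and 17.9, 11.2 and 21.5 FPKM in KO libraries (log2 fold change -1.01 ± 0.238, SE, with limma adjusted p = 0.0711, or 0.0382 with the replicate block, which was not taken as a pairing in MPPs). In CD115- CDPs they were 46.7, 25.5 and 71.7 FPKM in WT and 21.1, 13.5 and 14.3 FPKM in KO libraries (log2 fold change -1.41, limma adjusted p = 0.348, or 0.030 with the replicate block). KO libraries were below WT without overlap in all 3 populations, as they were for *Mx1* and *Stat2* and for no other member. The share of all genes that did so is not given, so nothing particular to the members is read from this count.

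*Ifi44* (Entrez 99899), which encodes an interferon-induced GTPase-like protein, had the largest called change in MPPs. It had 10.2, 8.79 and 10.2 FPKM in WT and 2.48, 1.99 and 4.1 FPKM in KO MPPs, with a change of -1.51 ± 0.213 (SE) on the log2 scale with adjusted p = 0.019 in limma. In CLPs it had 6.96, 3.21 and 4.81 FPKM in WT and 2.9, 3.62 and 3.79 FPKM in KO libraries, which overlapped, and in CD115- CDPs 2.54, 1.55 and 2.67 FPKM in WT against 1.37, 0.76 and 1.65 FPKM in KO libraries, which overlapped as well. *Rtp4* (Entrez 67775, chromosome 16, 23520219 to 23614222), of the receptor transporter protein family, went the other way between populations. It had 20.6, 19.9 and 24.2 FPKM in WT and 10.4, 9.78 and 12.9 FPKM in KO MPPs (log2 fold change -0.91, limma adjusted p = 0.0258). In CD115- CDPs it had 2.05, 2.17 and 3.53 FPKM in WT and 6.56, 6.14 and 4.33 FPKM in KO libraries (log2 fold change 0.91, limma adjusted p = 0.343). In CLPs it had 5.87, 6.33 and 6.64 FPKM in WT and 8.04, 12 and 10.8 FPKM in KO libraries (log2 fold change 0.62, limma adjusted p = 0.0288). The genotypes did not overlap in any of the 3 populations, with KO below WT in MPPs and above WT in CD115- CDPs and CLPs.

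Antiviral effectors with 7 members had 0 called in MPPs, 4 lower by the adjusted p alone (3.52% of all genes), and 1 called lower in CLPs (2.84%). *Mx1* (Entrez 17857, chromosome 16, 97447035 to 97462906) encodes a dynamin-like antiviral GTPase, and C57BL/6 mice are known to carry an allele with a deletion whose transcript yields no working protein. It had 9.64, 9.28 and 8.53 FPKM in WT and 1.54, 2.4 and 2.25 FPKM in KO CLPs, a change of -1.74 ± 0.143 (SE) on the log2 scale with adjusted p = 0.00012 in limma. The MPP values were 3.14, 2.85 and 3.13 FPKM in WT and 1.06, 1.22 and 1.19 FPKM in KO libraries, with a tight spread in both groups (log2 fold change -0.91, limma adjusted p = 0.0118). In CD115- CDPs they were 6.19, 2.89 and 9.43 FPKM in WT and 2.25, 2.09 and 1.01 FPKM in KO libraries (log2 fold change -1.28, limma adjusted p = 0.394, or 0.0714 with the block). *Mx2* was lower in CLPs at -0.86 (limma adjusted p = 0.00442), with KO 1, KO 2 and KO 3 at 1.91, 2.59 and 2.72 FPKM below all WT libraries at 5.42, 4.68 and 5.31 FPKM, but its groups overlapped in MPPs and CD115- CDPs. *Cmpk2*, a mitochondrial nucleotide kinase gene, was lower in CLPs at -0.71 (limma adjusted p = 0.00429), whereas its neighbour *Rsad2*, which encodes viperin, overlapped there. *Isg20*, *Ifitm3* and *Samd9l* were lower in MPPs by the adjusted p alone, at -0.77, -0.69 and -0.88 on the log2 scale, and overlapped in CLPs.

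The ISG15 system includes *Usp18* (Entrez 24110), whose product removes ISG15 from proteins and dampens signalling at IFNAR2. *Usp18* had the largest log2 fold change of any member in MPPs, -1.82 (standard error 0.426), with 7.53, 7.66 and 9.44 FPKM in WT and 1.02, 0.64 and 4.34 FPKM in KO libraries. KO 3 stood apart from KO 1 and KO 2, and the limma adjusted p was 0.071. It was 0.0492 with the replicate block, although the numbers were not taken as a pairing in MPPs. Without KO 3 the log2 fold change was -2.33 with a limma adjusted p of 0.000652, and without any other single MPP library it was between -1.87 and -1.48 with adjusted p from 0.179 to 0.25. In CLPs *Usp18* had 7.82, 9.73 and 11.2 FPKM in WT and 3.65, 5.43 and 4.03 FPKM in KO libraries, without overlap (log2 fold change -0.98, limma adjusted p = 0.0065). In CD115- CDPs the WT libraries had 2.56, 0.44 and 6.73 FPKM and their range enclosed the KO values of 1.03, 0.87 and 2.29 FPKM. *Herc6*, which encodes an ISG15 ligase, was lower in MPPs by the adjusted p alone (-0.63, limma adjusted p = 0.0457) and without overlap in CD115- CDPs. *Isg15* itself was not called in any population, and it was below every WT library in KO CLPs at -0.42 (limma adjusted p = 0.0945).

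**Figure D3:**
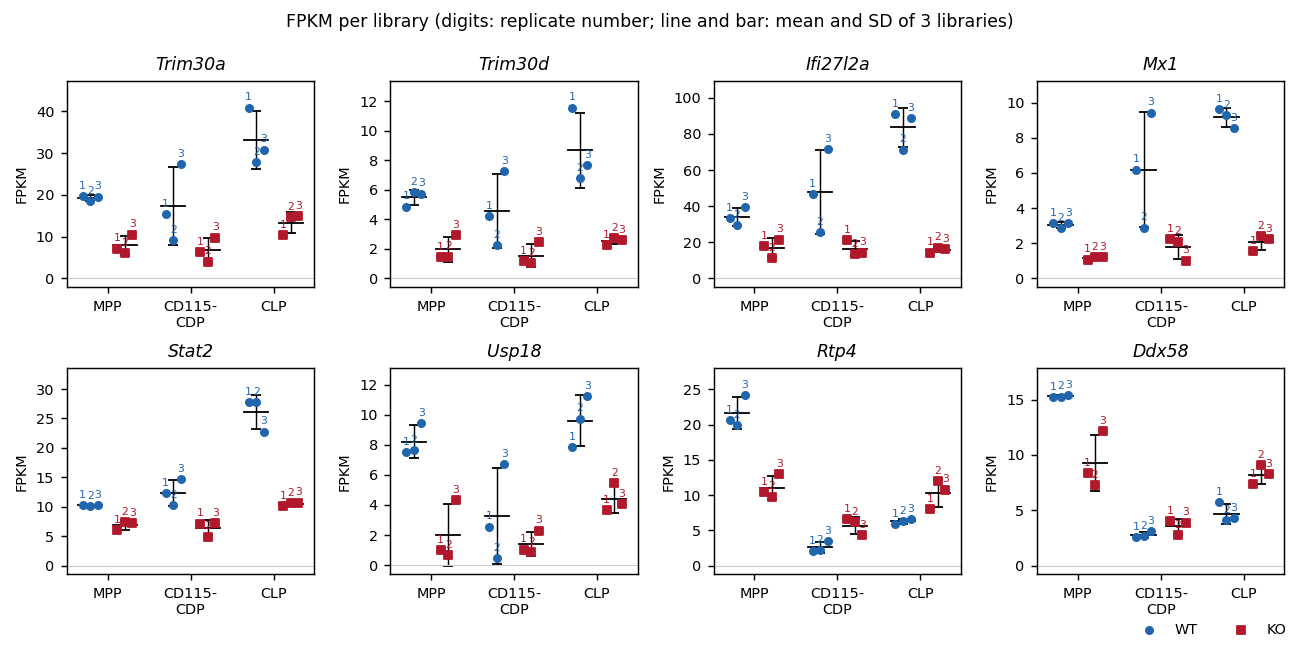
FPKM per library (y axis, linear) of *Trim30a*, *Trim30d*, *Ifi27l2a*, *Mx1*, *Stat2*, *Usp18*, *Rtp4* and *Ddx58* in WT (blue circles) and KO (red squares) libraries of the 3 populations (x axis), with digits for the replicate number and lines and bars for the mean and SD of 3 libraries. KO points lie below all WT points in each population for *Ifi27l2a*, *Mx1* and *Stat2*, and *Rtp4* changes side between MPPs and the other populations.

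Among RNA sensors and OAS enzymes, *Zbp1* and *Oas2* were called lower in MPPs and none was called in CLPs. For all 5 sensors every KO library was below every WT library in MPPs (23.3% of all genes), with a median log2 fold change of -0.70, and 1 of them, *Zbp1* (Entrez 58203), a sensor of Z-form nucleic acid, was called. *Zbp1* had 6.34, 5.08 and 7.93 FPKM in WT and 1.88, 3.23 and 1.86 FPKM in KO MPPs (log2 fold change -1.17 ± 0.218, SE, with limma adjusted p = 0.0407). *Zbp1* was no longer called there with the replicate block (limma adjusted p = 0.0728) or without a filter on low values (0.0609). The same held with median ratio scaling (0.0594) and quantile normalization (0.116). It had 2.72, 1.39 and 10.6 FPKM in WT and 1.61, 1.34 and 2.09 FPKM in KO CD115- CDPs, where the groups overlapped and WT 3 alone was high, and 2.79, 2.42 and 3.0 FPKM in WT against 2.08, 2.33 and 1.89 FPKM in KO libraries of CLPs, where KO was below WT with a limma adjusted p of 0.194. *Ddx58* (Entrez 230073), which encodes the RNA helicase RIG-I, had 15.2, 15.3 and 15.4 FPKM in WT and 8.34, 7.31 and 12.2 FPKM in KO MPPs (log2 fold change -0.70, limma adjusted p = 0.0916). In CLPs it had 5.72, 4.09 and 4.27 FPKM in WT and 7.37, 9.07 and 8.24 FPKM in KO libraries, above WT without overlap (log2 fold change 0.70 ± 0.145, SE, with limma adjusted p = 0.014). In CD115- CDPs it had 2.6, 2.64 and 3.09 FPKM in WT and 4.03, 2.78 and 3.89 FPKM in KO libraries, which overlapped. *Ifih1* and *Dhx58*, genes of the related helicases MDA5 and LGP2, and *Eif2ak2*, the gene of the kinase PKR, were not called in any population. Their log2 fold changes were -0.43, -0.99 and -0.51 in MPPs and 0.13, -0.13 and 0.13 in CLPs.

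OAS enzymes make oligoadenylates that activate RNase L, and 4 of the 5 OAS genes were below every WT library in KO MPPs, where 23.3% of all genes were (median log2 fold change of the 5 genes -0.90). *Oas2* (Entrez 246728) was called, with 9.62, 9.72 and 10.8 FPKM in WT and 3.76, 2.84 and 5.6 FPKM in KO libraries (log2 fold change -1.16 ± 0.209, SE, with limma adjusted p = 0.0374). In CLPs *Oas2* had 4.03, 3.56 and 3.37 FPKM in WT and 4.43, 5.02 and 5.18 FPKM in KO libraries, the latter all higher, with a limma adjusted p of 0.103. It overlapped in CD115- CDPs, at 1.61, 0.96 and 3.23 FPKM in WT and 1.57, 0.63 and 2.44 FPKM in KO libraries. *Oasl2* was among the 3 largest log2 fold changes in MPPs but was not called, at 25, 22.7 and 24.2 FPKM in WT and 8.48, 6.62 and 15.5 FPKM in KO libraries (log2 fold change -1.24 ± 0.275, SE, with limma adjusted p = 0.0622). Without KO 3 this was -1.55 with a limma adjusted p of 0.000765, and without any other single MPP library it was between -1.27 and -0.997 with adjusted p from 0.142 to 0.247. *Oasl2* overlapped in CD115- CDPs (3.03, 1.77 and 7.61 FPKM in WT against 3.17, 2.18 and 6.5 FPKM in KO) and in CLPs (8.37, 6.04 and 7.56 FPKM in WT against 5.93, 7.06 and 6.64 FPKM in KO libraries). *Oasl1* overlapped in all 3 populations. *Oas1a* and *Oas3* were below every WT library in MPPs, at -0.53 and -0.90 on the log2 scale (limma adjusted p = 0.0672 and 0.123), and overlapped in both other populations.

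Of the 3 IFIT genes, whose products bind viral RNA, *Ifit3* was lower in MPPs by the adjusted p alone. It had 2.18, 1.77 and 1.99 FPKM in WT and 0.54, 1.04 and 0.55 FPKM in KO libraries (log2 fold change -0.81, limma adjusted p = 0.0391), and in CLPs every library was at or below 1.04 FPKM. *Ifit2* was below every WT library in MPPs, at -0.57 (limma adjusted p = 0.181), with KO 3 at 5.55 FPKM close to the lowest WT value of 5.87 FPKM. Of the members with other roles, *Xaf1*, a gene linked to cell death, was below every WT library in MPPs (-0.75, limma adjusted p = 0.0933) and above every WT library in CLPs (0.19, limma adjusted p = 0.347). *Lgals3bp*, which encodes a secreted glycoprotein, overlapped in all 3 populations.

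Both guanylate-binding proteins among the members, which attack intracellular pathogens and respond to interferon-gamma as well as to type I interferon, were higher in CLPs by the adjusted p alone. *Gbp2* had 2.54, 4.12 and 3.21 FPKM in WT and 4.63, 7.86 and 8.31 FPKM in KO CLPs (log2 fold change 0.87, limma adjusted p = 0.0324), and *Gbp3* 13.8, 9.97 and 10.3 FPKM in WT against 19.4, 18.7 and 18.8 FPKM in KO libraries (log2 fold change 0.71, limma adjusted p = 0.0091). Both were above WT without overlap and under a log2 fold change of 1. *Gbp2* was called higher with a pseudocount of 0.1, without WT 2 and without KO 1. In MPPs *Gbp2* was lower at -0.57 (limma adjusted p = 0.038), while *Gbp3* overlapped.

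The 3 populations were also compared directly, with an F test in limma of whether the KO effect differed between them, over all 18 libraries and 12421 genes. Of the 37 members 2 passed, *Rtp4* (adjusted p = 0.00172) and *Ddx58* (adjusted p = 0.0114), where 2.45% of all genes did. With the replicate block 10 passed (8.67% of all genes), with *Gbp2*, *Lgals3bp*, *Stat2*, *Oasl2*, *Isg20*, *Oas2*, *Oas1a* and *Xaf1* in addition, and 17 passed without both libraries numbered 3 (15.4%). In 6 members, *Rtp4*, *Ddx58*, *Oas2*, *Gbp2*, *Dtx3l* and *Xaf1*, every KO library was below every WT library in MPPs and above in CLPs (2.70% of all genes). The effect on *Rtp4* was higher in CD115- CDPs than in MPPs by 1.82 (log2) (standard error 0.263, limma adjusted p = 0.00456) and by 1.53 in CLPs than in MPPs (standard error 0.263, limma adjusted p = 0.00391). For *Ddx58* the effect was higher by 1.40 in CLPs than in MPPs (standard error 0.242, limma adjusted p = 0.00400). *Trim30a* and *Trim30d* had effects that differed between CLPs and MPPs by -0.03 (standard error 0.463) and -0.25 (standard error 0.427), both within 1 standard error, with limma adjusted p = 0.997 and 0.844 for the F test. For *Ifi27l2a* the effect in CLPs minus that in MPPs was -1.32 (standard error 0.422, limma adjusted p = 0.0955), with adjusted p = 0.21 for the F test. With the replicate block this difference passed (standard error 0.320, limma adjusted p = 0.0254), and the F test had an adjusted p of 0.0557. The block in these fits also pairs the MPP libraries by number, although the numbers were not taken as a pairing in MPPs.

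Some members split the KO libraries by replicate number. These were chosen after their values were seen, by KO 1 and KO 2 both above every WT library and KO 3 not, and no test was made. In CD115- CDPs they were 4 of 37 (3.78% of all genes): *Ifit1*, *Rsad2*, *Isg15* and *Oasl1*. *Ifit1*, whose product binds viral RNA ends, had 0.72, 0.69 and 0.90 FPKM in WT and 3.33, 5.04 and 0.52 FPKM in KO CD115- CDPs. *Isg15* had 5.79, 5.11 and 9.52 FPKM in WT and 20.2, 23.4 and 5.73 FPKM in KO libraries, and its log2 fold change of 1.0 had a standard error of 0.517. KO 1 and KO 2 stood well above WT in both genes, and KO 3 was in or below the WT range. *Rsad2* had 2.25, 3.72 and 2.09 FPKM in WT and 8.65, 8.83 and 1.1 FPKM in KO libraries, and *Oasl1* 7.09, 7.85 and 3.95 FPKM in WT against 17.3, 13.8 and 4.23 FPKM in KO libraries. In MPPs *Ifit1*, *Rsad2* and *Gbp3* met the rule, 3 of 37 members where 14.6% of all genes did, and KO 3 was below every WT library for all 3 (8.29% of all genes), so that nothing about the members is read from the count. *Rsad2*, for example, had 5.41, 7.23 and 4.81 FPKM in WT and 8.67, 13.9 and 2.34 FPKM in KO MPPs. In CLPs *Oas3* alone met the rule (5.08% of all genes).

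**Figure D4:**
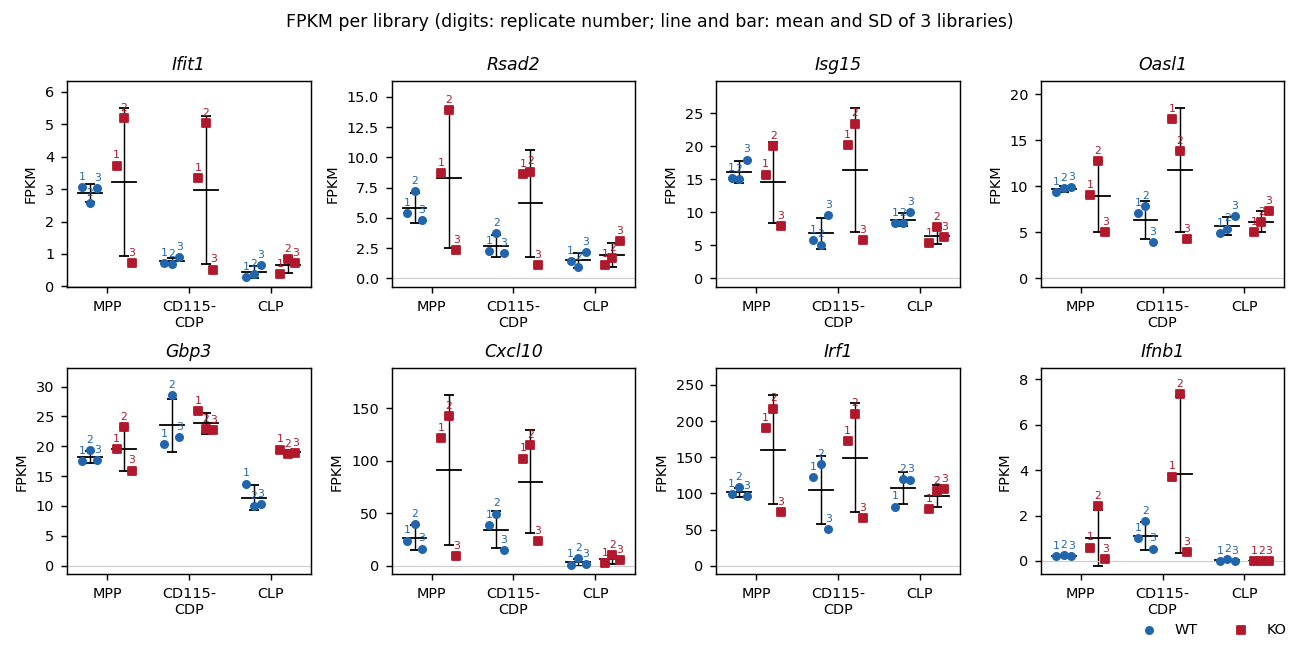
FPKM per library (y axis, linear) of *Ifit1*, *Rsad2*, *Isg15*, *Oasl1*, *Gbp3*, *Cxcl10*, *Irf1* and *Ifnb1* in WT (blue circles) and KO (red squares) libraries of the 3 populations (x axis), with digits for the replicate number and lines and bars for the mean and SD. In CD115- CDPs KO 1 and KO 2 lie above all WT points and KO 3 below most of them for *Ifit1*, *Rsad2* and *Cxcl10*, and *Ifnb1* is at or near 0 in all CLP libraries.

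The same libraries were high in *Cxcl10*, an interferon-induced chemokine outside the 37 genes, at 38.4, 49.7 and 14.9 FPKM in WT and 102, 115 and 23.7 FPKM in KO CD115- CDPs and 24.1, 39.8 and 16.4 FPKM in WT against 122, 142 and 9.48 FPKM in KO libraries in MPPs. It was called higher in CD115- CDPs with the replicate block (log2 fold change 1.07, limma adjusted p = 0.0197 with it and 0.643 without it). *Ifnb1*, the gene of interferon beta, and *Irf1* were chosen after their values were seen. *Ifnb1* had 1.0, 1.75 and 0.54 FPKM in WT and 3.72, 7.34 and 0.40 FPKM in KO CD115- CDPs, 0.20, 0.27 and 0.20 FPKM in WT against 0.59, 2.41 and 0.070 FPKM in KO libraries in MPPs, and at most 0.0700 FPKM in any CLP library. *Irf1* had 99.4, 109 and 96.2 FPKM in WT and 189.8, 217 and 74.4 FPKM in KO MPPs and 123, 140.0 and 50.9 FPKM in WT against 172, 210.3 and 65.6 FPKM in KO libraries in CD115- CDPs. The part of *Ifnb1* in the values of the members was not tested.

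Genes of the receptor and the IRF genes *Irf9* and *Irf7* were read beside the members. *Irf9* was -0.46 in MPPs (limma adjusted p = 0.0933) and -0.61 in CLPs (limma adjusted p = 0.0142) on the log2 scale, below every WT library in all 3 populations. *Irf7*, which amplifies interferon production, was -0.90 in MPPs (limma adjusted p = 0.019) and was called lower in CLPs at -1.19 (limma adjusted p = 0.000852). *Ifnar2* had 122, 116 and 113 FPKM in WT and 74.7, 70.2 and 70.8 FPKM in KO CLPs (-0.69, limma adjusted p = 0.00134), and overlapped in MPPs. *Ifnar1* was -0.36 in CLPs (limma adjusted p = 0.0898) and 0.03 in MPPs (limma adjusted p = 0.867). In CD115- CDPs both receptor genes were below WT without overlap, *Ifnar1* at -0.46 (limma adjusted p = 0.409) and *Ifnar2* at -0.39 (limma adjusted p = 0.434). The effect on *Ifnar2* differed between the populations in the F test (limma adjusted p = 0.0114), and that on *Ifnar1* had an adjusted p of 0.248 there.

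Of the interferon pathway genes outside the 37 members, listed by role, 7 of 102 tested were called lower in MPPs and 0 higher, 2 lower and 1 higher of 98 in CLPs, and 0 of 104 in CD115- CDPs, where 17 had an unadjusted p of at most 0.05 and the replicate block called 4 lower and 1 higher. These lower calls were 6.86% of the pathway genes in MPPs, against 1.32% of all genes, and 2.04% in CLPs, under the 2.84% of all genes. In CD115- CDPs 0.0654% of all genes were called lower, or 1.46% with the block. The median log2 fold change of the pathway genes was -0.39 in MPPs, -0.07 in CLPs and -0.18 in CD115- CDPs. The MPP calls were *Ifitm1* (-1.39), *Ms4a4c* (-1.65), the GTPase genes *Iigp1* (-1.40) and *Tgtp2* (-1.04), the p200 family genes *Mnda* (-1.44) and *Pyhin1* (-1.51), and *Slfn5* (-1.35), with limma adjusted p from 0.00253 to 0.0498. *Trim34a* and *Igtp* were at -1.30 and -1.03 with limma adjusted p = 0.0526 and 0.0636. In CLPs *Gbp4* (-1.62, limma adjusted p = 0.0461) and *Slfn2* (-1.89, limma adjusted p = 0.00062) were lower, and *Tgtp1* was higher at 1.09 (limma adjusted p = 0.000702). With the block *Ms4a4c*, *Gbp4*, *Gbp8* and *Pyhin1* were lower in CD115- CDPs, at -1.95, -1.23, -1.05 and -2.12.

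*Ly6a*, an interferon-inducible gene, encodes the Sca-1 on which MPPs and CLPs were gated. It had 59.3, 60.2 and 76.4 FPKM in WT and 39.3, 33.9 and 43.1 FPKM in KO MPPs (log2 fold change -0.73, limma adjusted p = 0.0425), and its groups overlapped in CD115- CDPs and in CLPs. The sort selected on its product, so that its level in MPPs and CLPs is bounded by the gate.

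Markers of other cell types moved with genotype beside the members. In MPPs the 8 erythroid markers summed to between 360 and 390 FPKM in WT and between 32.1 and 57.8 FPKM in KO libraries, with 7 called lower, the 8 neutrophil markers, led by *S100a9*, to between 2243 and 2515 FPKM in WT and between 616 and 1370 FPKM in KO libraries, with 4 called lower, and the 7 monocyte markers, led by *Ms4a6c*, to between 47.5 and 51.2 FPKM and between 11.5 and 16.2 FPKM, with 3 called lower. The 8 plasmacytoid DC markers, led by *Cox6a2*, were, in MPPs, at 34.9 to 40.2 FPKM in WT and 38.2 to 57.3 FPKM in KO libraries, although *Klk1* and *Cd209d* were listed at 0 in each KO library. In CLPs the plasmacytoid DC markers, led by *Ly6d*, summed to between 1361 and 1748 FPKM in WT and between 365 and 400 FPKM in KO libraries, 8 of 8 were called lower, and *Klk1* and *Cd209d* were listed at 0 in every KO library. The 6 conventional DC markers, led by *Itgax*, summed to between 60.6 and 77.3 FPKM in WT and between 5.84 and 8.16 FPKM in KO CLPs, and the monocyte markers to between 46.6 and 66.1 FPKM and between 12.9 and 18.1 FPKM, with 3 of each list called lower. The erythroid markers of CLPs summed to between 34.4 and 56.6 FPKM in WT and between 5.62 and 9.86 FPKM in KO libraries, with 3 called lower. The CLP neutrophil markers summed to between 153 and 782 FPKM in WT and between 51.6 and 198 FPKM in KO libraries, with 0 called by limma, 5 at an unadjusted p of at most 0.05 and 6 called lower with the replicate block. Of the 7 T and NK markers in CLPs, *Nkg7* was called higher, with 19.6, 30.5 and 35 FPKM in WT and 66.9, 81.5 and 74.2 FPKM in KO libraries, and *Cd4* and *Cd8a* were called lower. The list summed to between 31.8 and 44.4 FPKM in WT and between 69.7 and 84.4 FPKM in KO CLPs, and without *Nkg7* to between 8.94 and 12.2 FPKM in WT and between 2.83 and 3.17 FPKM in KO CLPs. The CLP B lineage markers overlapped, at 172 to 499 FPKM in WT and 152 to 334 FPKM in KO libraries. In CD115- CDPs the monocyte markers summed to 30.9, 25.1 and 122 FPKM in KO 1, KO 2 and KO 3, against 138, 95 and 499 FPKM in WT 1, WT 2 and WT 3, and the plasmacytoid DC markers to 351, 441 and 105 FPKM against 721, 602 and 246 FPKM. Of these lists 1 plasmacytoid DC, 1 conventional DC and 0 monocyte markers were called lower in limma (3 monocyte markers had an unadjusted p of at most 0.05), and with the replicate block 4, 2 and 4 were. *Nkg7* had 72.7, 69.1 and 72 FPKM in KO and 25.2, 33.1 and 27.9 FPKM in WT CD115- CDPs and was called higher with the block, while the other 6 T and NK markers summed to between 1.53 and 2.03 FPKM in KO and between 2.51 and 11.1 FPKM in WT libraries, and to between 70.6 and 74.7 FPKM and between 29.1 and 39.0 FPKM with it. The conventional DC markers of CD115- CDPs summed to between 5.97 and 12.01 FPKM in KO and between 24.4 and 62.5 FPKM in WT libraries, and the neutrophil, erythroid and B lineage sums overlapped. In MPPs the 6 B lineage markers summed to between 21.8 and 23.1 FPKM in WT and between 6.89 and 14.9 FPKM in KO libraries, and the 7 T and NK markers, led by *Nkg7*, to between 86.1 and 98.0 FPKM and between 64.2 and 90.2 FPKM, with 0 of either list called by limma. At an unadjusted p of at most 0.05, 4 of the B lineage and 1 of the T and NK markers passed. The part of these cells in the member values was not tested.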

How the data were processed

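Poly-A RNA of sorted MPPs, CD115- CDPs and CLPs was sequenced as single-end reads of 50 bases, 3 WT and 3 KO libraries each. The deposited values are FPKM per gene, made by the authors in 1 table per population; the submitters' processing notes name HISAT2 2.0.4, Bowtie2 2.2.5 and RSEM 1.2.12. Whole reads could not be recovered from the FPKM, so no count test was used, and the depth of 19.1 to 21.2 M reads is an estimate from the steps of low values.

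Groups and replicate numbers came from the sample labels. Genes whose 6 libraries averaged 0.5 FPKM or more (12372 for MPPs, 12229 for CD115- CDPs, 12339 for CLPs) were fitted on log2(FPKM + 1) with limma 3.58.1 in R 4.3.3 (moderated, with a trend), with Benjamini-Hochberg adjustment over all of them. Fold changes on this scale understate those of low genes. Called genes had adjusted p up to 0.05 and a log2 fold change of 1 or more in size. The difference between populations was tested with an F test over 18 libraries. The scripts were tested on simulated data with independent libraries, none of them outlying. That test therefore does not bear on the differences between replicates seen here. Deviations of WT and KO libraries with the same number correlated across genes at 0.437, 0.671 and 0.79 in CD115- CDPs and 0.4, 0.329 and 0.131 in CLPs, and at 0.038, 0.482 and 0.472 in MPPs. All pairs exceeded 0.1 in CD115- CDPs and CLPs, where the replicate number was taken as pairing the libraries, and not in MPPs. This pairing rests on the data and the shared numbers, since no label says what a number marks. Fits with the block used the numbers in MPPs all the same, both within MPPs and in the F test across populations. Some libraries with different numbers correlated more than some with the same number. WT 2 with KO 1 and WT 1 with KO 2 in CD115- CDPs were at 0.663 and 0.381, and WT 3 with KO 2 in CLPs at 0.234. The correlations therefore do not decide how the libraries numbered 1 and 2 pair in CD115- CDPs. Lower p-values with the block depend on a pairing chosen from these same data. Alternatives were another pseudocount (0.1), other filters (none, or 5 FPKM), TPM, median ratio and quantile scaling, no trend, no minimum fold change, the block, leaving out each library and, chosen after seeing the data, leaving out both libraries numbered 3.

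The 37 genes, the pathway and marker lists and the rule for named genes were chosen with earlier results of these data known. Values in every library are given for members called in any population with or without the block, for the 3 members with the largest log2 fold changes in each population and for those past the F test. Outside the members, called pathway genes, the receptor genes, *Irf9* and *Ly6a* are named, most by their log2 fold change. A gene of the pathway lists is not reported here and was left out of their counts. Names outside this rule were picked with their values in view.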

Additional observations from a re-analysis of the deposited data

Results flagged for a closer look

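The KO effect on *Rtp4* and *Ddx58* differed between the 3 populations in limma's F test, with adjusted p = 0.00172 and 0.0114. *Rtp4* was at -0.91 (MPPs), 0.91 (CD115- CDPs) and 0.62 (CLPs) on the log2 scale, with each KO library outside the WT range in each population. *Ddx58* was at -0.70, 0.26 and 0.70.

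For 4 further members, and for *Rtp4* and *Ddx58*, every KO library lay below every WT library in MPPs and above every WT library in CLPs, as for 2.70% of all genes. *Oas2* had log2 fold changes of -1.16 and 0.34, *Gbp2* of -0.57 and 0.87, *Dtx3l* of -0.38 and 0.42, and *Xaf1* of -0.75 and 0.19. The F test across populations did not pass for them, with limma adjusted p = 0.121, 0.0553, 0.15 and 0.117. The direct difference of the KO effect between CLPs and MPPs did pass for *Oas2* and *Gbp2*, at limma adjusted p = 0.0466 and 0.0214. It did not pass for *Dtx3l* and *Xaf1*, at 0.0547 and 0.0647. With the replicate block the F test passed for *Oas2*, *Gbp2* and *Xaf1*, at limma adjusted p = 0.00486, 0.00882 and 0.0184, and *Dtx3l* had 0.0657. The direct difference with the block had limma adjusted p = 0.00176, 0.00343, 0.0281 and 0.0105 for *Oas2*, *Gbp2*, *Dtx3l* and *Xaf1*. These values with the block rest on pairing the MPP libraries by number, which was not taken as given in MPPs.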

How the results depend on the processing

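In MPPs the 5 members called lower became 2 without a filter on low values (0.762% of all genes), 2 with the filter raised to 5 FPKM (0.760%, 30 members left), 2 after quantile normalization (0.719%), 9 without both libraries numbered 3 (4.21%) and 13 with no minimum fold change (3.52%), and between 0 and 11 (4.43%) when single libraries were left out. In CD115- CDPs the 0 called lower became 3 with the replicate block (1.46%), and the 0 called higher became 4 without both libraries numbered 3 (0.554%). In CLPs the 5 called lower became 9 (8.92%) and the 0 called higher 4 (5.41%) with no minimum fold change. With a pseudocount of 0.1, *Gbp2*, 1 member, was called higher in CLPs (148 of all 12339 genes), and leaving out single libraries gave 5 to 6 lower and 0 to 1 higher. The 2 members past the F test across populations became 5 with median ratio (3.29%) or quantile scaling (3.16%), 4 without the trend (2.66%), 10 with the replicate block (8.67% of all genes) and 17 without both libraries numbered 3 (15.4%), and 2 to 8 (4.24%, without WT 3 of CD115- CDPs) when single libraries were left out. The causes of these differences were not tested.

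In MPPs, where the replicate numbers do not pair every library, the replicate block gave 6 members lower: *Usp18* and *Ifi27l2a* were gained and *Zbp1* was lost. The block changed no call of a member in CLPs. Single genes were followed in 17 pairs of a gene and a population, all with a main log2 fold change below 0. Of their values 206 kept their direction and their side of the threshold, 34 no longer passed it, 11 newly passed it and 0 changed sign. Other members did change sign. When single libraries were left out, between 12 and 25 of 37 were below 0 in CD115- CDPs and between 31 and 37 in MPPs. The share of all genes below 0 is not given for these fits. Depth and the lack of counts limit the lowest members, such as *Ifit1* in CLPs, and 3 libraries per group limit every test.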
